A study of Mus musculus with 9 samples.

Results

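The AP-2 transcription factors and the proteins known to bind them were followed through brain RNA of mice with 1 inactivated copy of an AP-2 gene. The set holds 10 genes of 54446 identifiers in the tables: the 5 AP-2 genes Tfap2a, Tfap2b, Tfap2c, Tfap2d and Tfap2e, the repressors Kctd1 and Kctd15, and the coactivators Cited1, Cited2 and Cited4. They were chosen by name and not by their values. Of the 10, 8 passed the filter on low counts and were tested. Tfap2c and Tfap2e did not pass it, and are described by their counts.

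Brain tissue came from adult male mice aged 3 to 4 months of 3 genotypes: wild type, labelled B6N, the heterozygote Tfap2a+/- and the heterozygote Tfap2b+/-. Each genotype had 3 libraries of polyadenylated RNA, made from 500 ng of RNA out of 20 to 80 mg of tissue, and no treatment is named. All 11 genes of a general list of neurons and glia had counts in every library, with sums of 7757 to 11216 CPM. The part of the brain taken, the construction of both knockout alleles and whether each library is 1 animal are not given in the sources used here. P-values therefore speak only of how these libraries vary, and that variation may be technical in origin. Counts in genes ran from 21946800 to 29214975 per library, so that 3 counts, the level that a count of 0 allows, correspond to 0.101 to 0.141 CPM, the count scaled to library size with TMM factors. Such floors cover counting error only.

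AP-2 proteins bind GC-rich DNA as dimers and are best known from the neural crest, the skin, the kidney and the developing nervous system. In the brain AP-2 beta marks subsets of midbrain, hindbrain and cerebellar neurons, AP-2 delta belongs to the dorsal midbrain, and AP-2 epsilon to the olfactory bulb. KCTD1 and KCTD15 are BTB-domain proteins that bind the activation domain of AP-2 and repress it. CITED proteins carry no DNA-binding domain. They join AP-2 to the histone acetyltransferases p300 and CBP, and CITED2 also competes with HIF-1 alpha for p300.

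The promoters of the set were searched for the AP-2 palindrome GCCNNNGGC, which AP-2 dimers are known to bind. The windows are RefSeq's on GRCm38.p6 and run from 250 bases before to 50 bases after each start. Windows of 8 of the 10 genes were searched, 15 windows in all, and 3 of them, in 2 genes, held the palindrome. No window of Kctd1 or Tfap2c was searched, so the matches say nothing of the promoters of these genes. Of all 27025 genes with a window, 18.5% held it. The matches are shown because they are the set's own candidate AP-2 sequences; capitals mark the 9 letters that match, and each line reads 5′ to 3′ on the gene's strand.
Kctd15, chr7:34653142-34653170, minus strand: agtcctgcagGCCCCTGGCactgctgcct
Kctd15, chr7:34653127-34653155, minus strand: tggcactgctGCCTCGGGCaagcgccctg
Kctd15, chr7:34653114-34653142, minus strand: tcgggcaagcGCCCTGGGCgtaagagctg
Kctd15, chr7:34655658-34655686, minus strand: ccgaaagcctGCCTTTGGCccgggagtcc
Cited1, chrX:102250851-102250879, minus strand: gcgagccactGCCGCTGGCgccaaagtgc
The first 3 matches begin at -228, -213 and -200 bases from 1 start of Kctd15, so that the stretches shown overlap. The other Kctd15 match begins at -167 from another start of that gene, and the Cited1 match at -93 from a start. A match is a description of the letters and not a bound site.

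A second form, GCCNNNGGG read on both strands, was in the windows of 6 of the same 8 genes and of 29.5% of all genes. The 8 genes had 15 windows, and a gene with more windows has more chances of a match, so these shares are not like for like. Of all 32851 windows, 27.0% held this form. Tfap2a held it at -167 bases from a start, where the copies on both strands overlap, as shown here in capitals.
Tfap2a, chr13:40735068-40735097, minus strand: gagtgagtaaGCCCCTGGGCggagtcagga
The windows of Tfap2b and Tfap2d held neither form, which says only that these letters are not there. The 250 bases before their starts are shown because these 2 neighbouring genes had the widest ranges of the tested members; capitals mark GCC and GGC, the triplets that make up the palindrome.
Tfap2d, chr1:19102772-19103021, plus strand: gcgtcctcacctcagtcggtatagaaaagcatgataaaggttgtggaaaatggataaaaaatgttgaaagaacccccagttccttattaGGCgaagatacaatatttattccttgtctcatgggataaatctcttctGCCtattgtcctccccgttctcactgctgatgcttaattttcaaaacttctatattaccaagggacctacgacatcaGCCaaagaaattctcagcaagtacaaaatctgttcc
Tfap2b, chr1:19211804-19212053, plus strand: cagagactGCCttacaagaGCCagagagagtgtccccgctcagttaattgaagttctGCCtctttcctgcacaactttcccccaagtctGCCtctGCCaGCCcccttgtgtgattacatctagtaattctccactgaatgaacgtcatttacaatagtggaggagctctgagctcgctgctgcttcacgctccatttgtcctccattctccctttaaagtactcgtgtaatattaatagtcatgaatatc
The Tfap2d stretch held 3 such triplets and had a GC content of 39.6%, and the Tfap2b stretch held 6 at 46.4%. The median over all windows was 52.4%.

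Levels are given first, scaled per length so that genes can be set side by side. As CPM per kb of merged exons, averaged over the 9 libraries, Cited2 had the highest level at 12.8 ± 1.12 (SD, n = 9) and Kctd1 followed at 10.9 ± 3.34. These 2 did not keep an order, since Cited2 was higher in 6 of 9 libraries, and with the longest transcript as the length Kctd1 came to 21.2 and Cited2 to 13.0. Cited4 stood at 3.63 ± 1.46 and Kctd15 at 2.51 ± 0.245 CPM per kb, and Cited4 was higher in 7 of 9 libraries. With the longest transcript Kctd15 came to 4.28 and lay above Cited4 at 3.63.

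The AP-2 genes themselves were lower. Tfap2b averaged 1.29 ± 1.62 CPM per kb and Tfap2d 0.918 ± 1.24 (SD, n = 9), with Tfap2b higher in 5 of 9 libraries. Cited1 averaged 0.858 ± 0.366 CPM per kb and lay above Tfap2d in 6 of 9 libraries, so these neighbours in the order did not differ beyond their spread. Tfap2a averaged 0.116 ± 0.0891 CPM per kb, below Cited1 in 9 of 9 libraries. Tfap2c followed at 0.0356 ± 0.0673, and Tfap2e had no count in any of the 9 libraries.

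**Figure D1:**
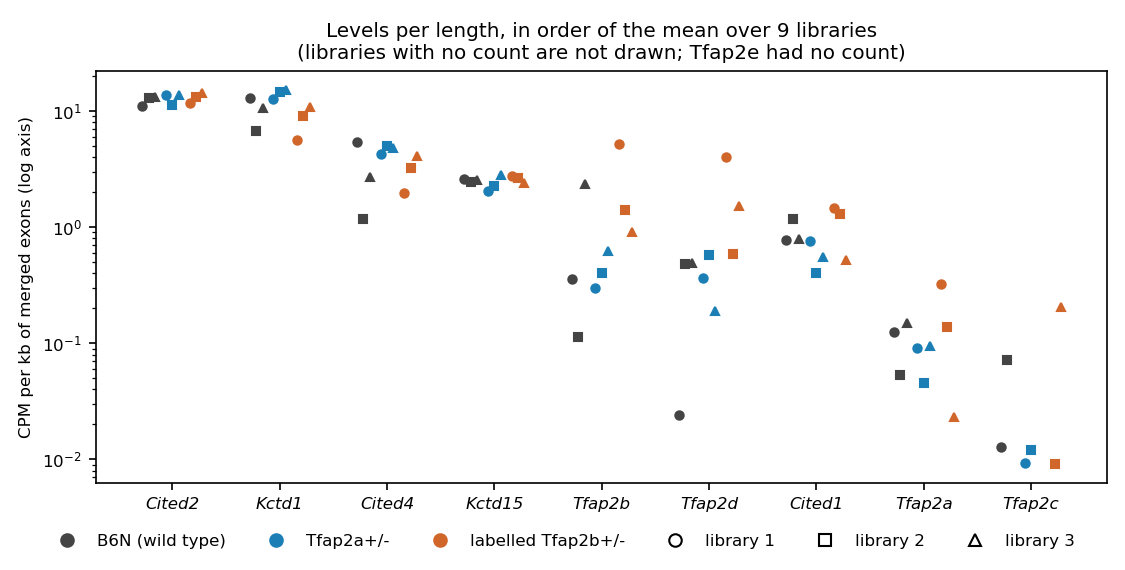
Level of each gene as CPM per kb of merged exons on a log axis, 1 point per library, coloured by genotype and shaped by library number. Cited2 and Kctd1 stand highest, while the points of Tfap2b and Tfap2d spread over more than those of any other tested gene.

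The AP-2 genes were also the most uneven between libraries. The coefficient of variation of the CPM over the 9 libraries was 135% for Tfap2d, 125% for Tfap2b and 76.9% for Tfap2a, against a median of 16.0% over the 17355 genes tested. Of those genes, 99.3% varied less than Tfap2d, 99.2% less than Tfap2b and 96.7% less than Tfap2a. Cited2 and Kctd15 varied little, at 8.81% and 9.79%, while Cited1, Cited4 and Kctd1 lay between, at 42.7%, 40.2% and 30.7%. Part of the spread of Tfap2a is counting error, since its counts per library ran from 3 to 45.

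Tfap2a (ENSMUSG00000021359.16, chromosome 13, 40715302 to 40738376, minus strand, GRCm38) encodes AP-2 alpha, the gene inactivated in 1 heterozygote. Its CPM in B6N libraries 1 to 3 was 0.610, 0.263 and 0.734. In Tfap2a+/- it was 0.445, 0.223 and 0.461, and in the libraries labelled Tfap2b+/- it was 1.59, 0.674 and 0.113. The groups overlap, and library 1 labelled Tfap2b+/- stands highest while library 3 of the same group stands lowest. The log2 fold of Tfap2a+/- against B6N was -0.49 with a 95% interval from -2.31 to 1.33 (edgeR adjusted p = 0.999). Between the heterozygotes it was 1.06 ± 0.78 (SE; libraries labelled Tfap2b+/- over Tfap2a+/-, edgeR adjusted p = 0.61), and 0.076 without library 1 labelled Tfap2b+/-. The libraries labelled Tfap2b+/- stood at a log2 fold of 0.57 ± 0.75 against B6N (edgeR adjusted p = 0.79), and at -0.41 without library 1 of that label. For Tfap2a+/- the interval against B6N holds both no change and the fold that losing 1 of 2 copies would give.

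Tfap2b (ENSMUSG00000025927.13, chromosome 1, 19208914 to 19238576, plus strand) encodes AP-2 beta. Its CPM was 2.25, 0.715 and 14.8 in B6N, 1.88, 2.54 and 3.96 in Tfap2a+/- and 32.9, 8.90 and 5.81 in the libraries labelled Tfap2b+/-. The label says that 1 copy is inactivated, and these are the highest levels of the 3 groups, so the label is quoted throughout. Counts cover the whole gene, and RNA from an inactivated copy could be among them. The libraries labelled Tfap2b+/- also differ from the other 6 in the share of fragments that overlapped no annotated exon on the strand counted. That share was 11.1% to 11.8% against 7.30% to 8.96%, and its part in the values was not tested. B6N library 3 lies above 2 of the 3 libraries labelled Tfap2b+/-, so those groups overlap, while the 2 heterozygotes do not.

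Between the heterozygotes the Tfap2b log2 fold was 2.51 ± 1.03 (SE; libraries labelled Tfap2b+/- over Tfap2a+/-), with a 95% interval from 0.17 to 4.86. It did not pass over all genes (edgeR adjusted p = 0.42), it was 1.40 without library 1 labelled Tfap2b+/-, and the exact permutation test of its CPM gave p = 0.1, the smallest that 3 libraries against 3 allow. In that comparison groups did not overlap, in the higher direction, for 9.2% of all genes tested. Against B6N the log2 folds were -1.10 ± 1.02 in Tfap2a+/- (edgeR adjusted p = 0.999) and 1.42 ± 0.98 in the libraries labelled Tfap2b+/- (edgeR adjusted p = 0.60). The first turned to 0.93 without B6N library 3, and the second was 3.44 without that library, 0.32 without library 1 labelled Tfap2b+/- and -0.21 without the 3 libraries of highest choroid plexus or hindbrain markers (B6N library 2, Tfap2a+/- library 1 and library 1 labelled Tfap2b+/-). That last set was chosen after seeing the data. It drops the highest Tfap2b value, 32.9 CPM, and the lowest, 0.715 CPM in B6N, and keeps B6N library 3 at 14.8 CPM.

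Tfap2d (ENSMUSG00000042596.7, chromosome 1, 19103022 to 19166346, plus strand) encodes AP-2 delta and ends 42568 bases before Tfap2b begins. Its CPM was 0.0470, 0.941 and 0.965 in B6N, 0.719, 1.11 and 0.369 in Tfap2a+/- and 7.87, 1.15 and 2.98 in the libraries labelled Tfap2b+/-. Each of those last 3 lies above each of the other 6, although library 2 does so narrowly. The value of B6N library 1 is 1 count, below the 3-count floor of 0.141 CPM in that library. The log2 fold over Tfap2a+/- was 2.44 ± 0.87 (SE), with an interval from 0.45 to 4.42 (edgeR adjusted p = 0.39), and over B6N it was 2.58 ± 0.88, with an interval from 0.58 to 4.57 (edgeR adjusted p = 0.42). These comparisons share the libraries labelled Tfap2b+/-. For Tfap2a+/- against B6N it was 0.14 ± 0.91 (edgeR adjusted p = 0.999), and -0.37 without B6N library 1. In the higher direction, 8.84% of all genes tested did not overlap between the libraries labelled Tfap2b+/- and B6N, and 9.2% between the former and Tfap2a+/-. The share that lay above all 6 other libraries was not counted. Without library 1 labelled Tfap2b+/- the log2 folds were 1.48 over Tfap2a+/- and 1.63 over B6N. Without B6N library 1 the log2 fold of the libraries labelled Tfap2b+/- over B6N was 2.05.

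**Figure D2:**
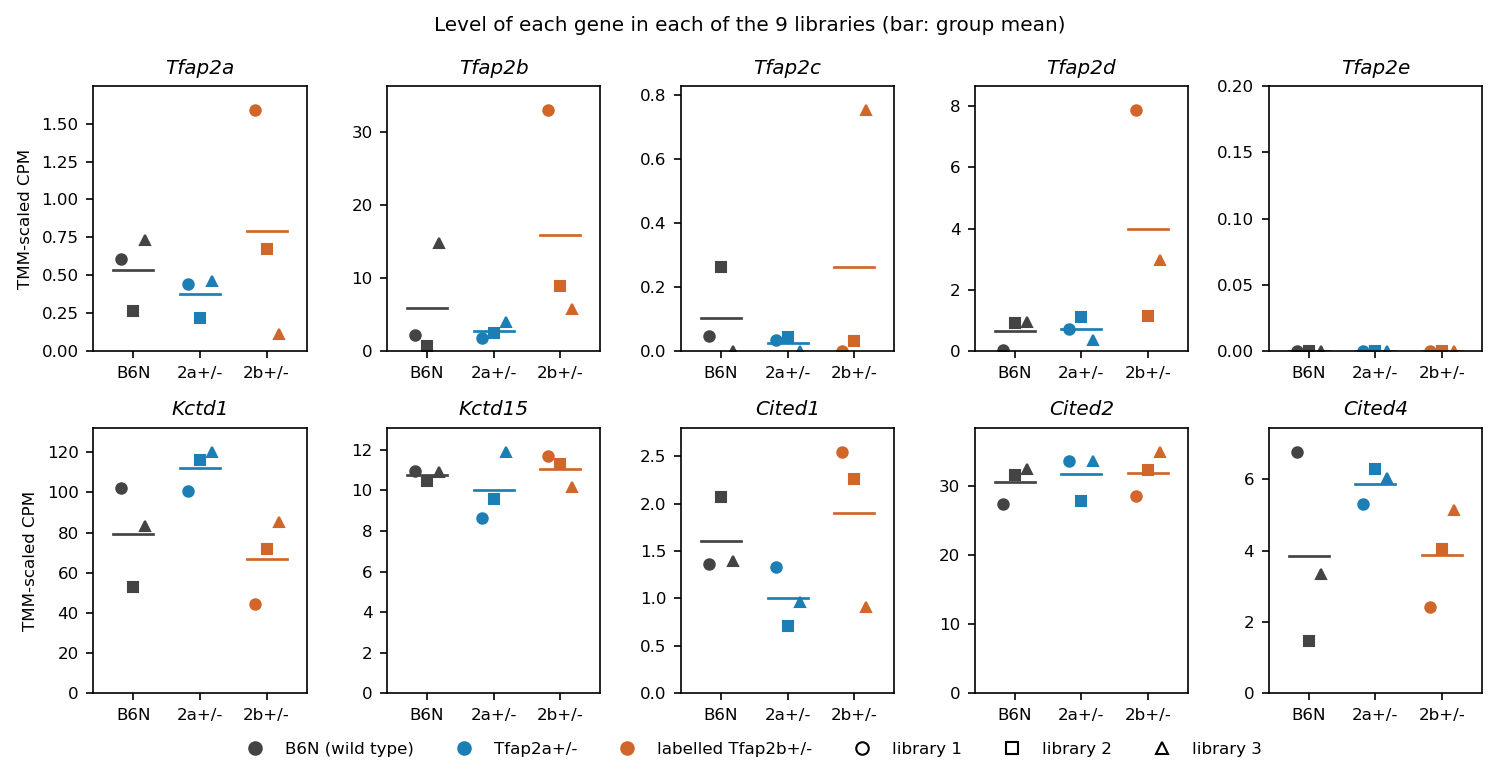
TMM-scaled CPM of the 10 genes in each library, with 1 panel per gene, its own linear axis from 0, and a bar at each group mean. Tfap2b reaches 32.9 CPM and Tfap2d 7.87 CPM in library 1 labelled Tfap2b+/-, while Cited2 and Kctd15 form level rows.

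Markers of brain regions moved beside these genes. A list of 15 transcription factors of the tectum and of midbrain GABAergic neurons summed to 151 CPM in library 1 labelled Tfap2b+/-, 52.1 CPM in B6N library 3 and 47.6 CPM in library 2 labelled Tfap2b+/-. The other 6 libraries held 10.8 to 19.0 CPM. The same 3 libraries, in the same order, have the 3 highest Tfap2b values. The order does not hold among the rest: library 3 labelled Tfap2b+/- had 5.81 CPM of Tfap2b with 11.8 CPM of the list, and B6N library 2 had 0.715 CPM, the lowest of all, with 19.0 CPM of the list. In these 3 libraries none of the 15 markers is at 0, against 3 to 7 of 15 in the other 6, where Pax7, a factor of the dorsal midbrain, is at most 0.0921 CPM. A list of 10 thalamus genes was also uneven, at 1179 and 1673 CPM in libraries 1 and 2 labelled Tfap2b+/-. It summed to 629 CPM in B6N library 3, within the 464 to 691 CPM of the remaining libraries. The part of these 2 lists in the Tfap2b values was not tested, and in whole tissue fewer cells of a type and less RNA per cell cannot be told apart.

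Tfap2d followed these markers less closely. Library 3 labelled Tfap2b+/- had 2.98 CPM of Tfap2d with 11.8 CPM of the tectal list, while B6N library 3 had 0.965 CPM with 52.1 CPM of the list. Library 3 labelled Tfap2b+/- also stood apart in genes of olfactory bulb projection neurons: Eomes was at 16.5 CPM against at most 3.39 CPM in the other 8 libraries, Tbx21 at 4.56 against at most 0.263 CPM, Cdhr1 at 92.4 against at most 17.8 CPM and Doc2g at 10.1 against at most 1.34 CPM. The list of 8 genes that holds them summed to 329 CPM there and to 153 to 411 CPM in the others. It also holds Slc17a6 and Tbr1, at 23.4 and 162 CPM there, which other regions express too. Of the same list, Lbhd2 was not highest there, at 1.81 CPM against 4.31 CPM in Tfap2a+/- library 1. Th was, at 17.6 CPM against at most 11.6 CPM. Tfap2e, the AP-2 gene of the olfactory bulb, had 0 sense counts in library 3 labelled Tfap2b+/-. The part of the olfactory bulb genes in the Tfap2d values was not tested, and without that library the Tfap2d log2 fold over B6N was 2.75. Library 1 labelled Tfap2b+/- stood apart in hindbrain markers too, at a sum of 74.8 CPM over 15 genes against 0.798 to 3.84 CPM elsewhere. Tph2, the serotonin-synthesising enzyme, made up 40.9 CPM of that sum, and 7 of the 15 genes, Hoxb2 and Hoxa2 among them, are at 0 even there. Pou4f3, a factor that depends on AP-2 delta in the mouse midbrain, had 1.06 CPM in that library, 0.472 CPM in library 2 labelled Tfap2b+/-, 0.309 CPM in B6N library 3 and at most 0.0446 CPM elsewhere. It is itself on the tectal list, and it was at 0 in library 3 labelled Tfap2b+/-, which had 2.98 CPM of Tfap2d.

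**Figure D3:**
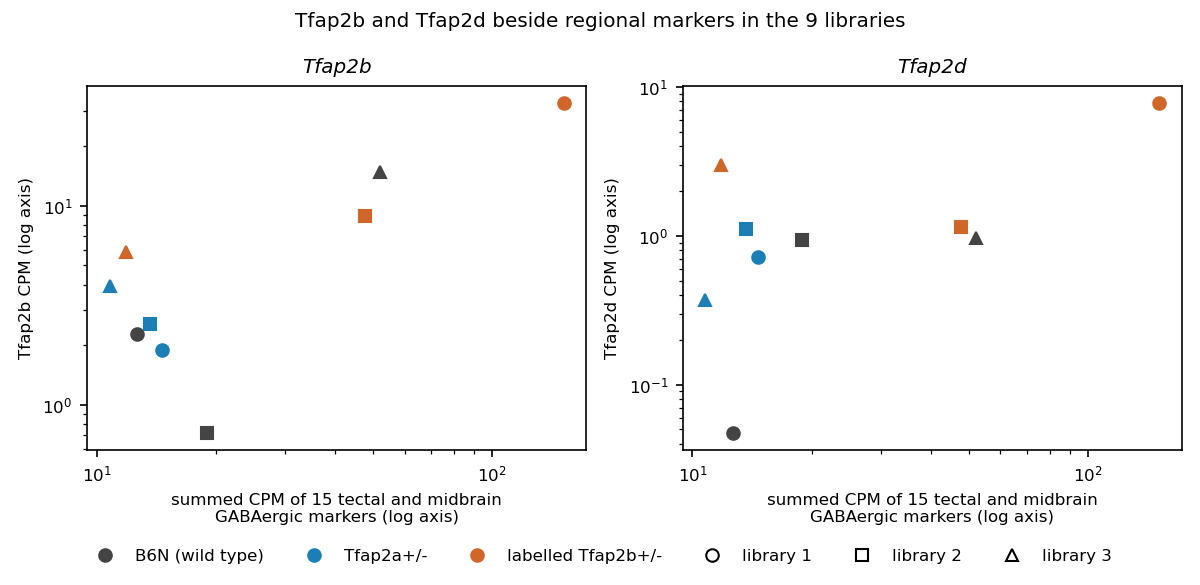
CPM of Tfap2b and of Tfap2d in each library against the summed CPM of 15 tectal and midbrain GABAergic markers, both axes log. The 3 libraries with a marker sum above 19.0 CPM are the 3 highest for Tfap2b, while for Tfap2d library 3 labelled Tfap2b+/- is high with a low marker sum.

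Tfap2c encodes AP-2 gamma, known from trophoblast and germ cells, and lies on chromosome 2, 172549593 to 172558622. Its counts were 1, 7 and 0 in B6N, 1, 1 and 0 in Tfap2a+/- and 0, 1 and 20 in the libraries labelled Tfap2b+/-. Of the 31 counts in all, 20 came from library 3 labelled Tfap2b+/-, at 0.754 CPM. That library also held the highest sum of 8 melanocyte genes, 26.6 CPM against 7.46 to 20.5 CPM in the others, including Dct, a melanin synthesis enzyme, at 7.54 CPM against at most 0.741 CPM. Of the same list, Mitf and Oca2 were not highest there, at 10.8 and 0.226 CPM against 14.1 and 5.31 CPM in B6N library 2. It held the highest sum of 14 meningeal fibroblast genes as well, 261 CPM against 109 to 180 CPM, beside the olfactory bulb genes given for Tfap2d. Their part in the Tfap2c counts was not tested. Tfap2e, on chromosome 4 (126716006 to 126736240), had no sense count, which allows up to 0.101 to 0.141 CPM per library.

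The repressors differed from each other in how they varied. Kctd1 lies on chromosome 18, and its CPM was 102, 52.7 and 83.4 in B6N, 100.5, 116 and 120.1 in Tfap2a+/- and 44.4, 71.7 and 85.2 in the libraries labelled Tfap2b+/-. Every Tfap2a+/- library lies above every library labelled Tfap2b+/-, and the lowest levels are in library 1 labelled Tfap2b+/- and B6N library 2. The log2 fold of the libraries labelled Tfap2b+/- over Tfap2a+/- was -0.74 ± 0.27 (SE), with a 95% interval from -1.36 to -0.12. It did not pass over all genes (edgeR adjusted p = 0.39) and ran from -0.95 to -0.52 as each library was left out. In the lower direction groups did not overlap for 8.03% of all genes tested.

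Against B6N the Kctd1 log2 fold was 0.50 ± 0.27 in Tfap2a+/- (edgeR adjusted p = 0.999), where 112 ± 10.4 CPM stood against 79.5 ± 25.0 CPM (SD, n = 3), and it was 0.28 without B6N library 2. In the libraries labelled Tfap2b+/- it was -0.24 ± 0.27 (edgeR adjusted p = 0.75) and -0.011 without library 1 of that group. That library has the lowest sum of 10 cortical excitatory neuron markers, 1018 CPM against 1771 to 2847 CPM in the others. B6N library 2 has 2349 CPM of that list and the highest choroid plexus sum, 3364 CPM against 24.5 to 934 CPM in the others. The Tfap2a+/- libraries in turn hold 1035 to 2907 CPM of 12 striatal genes, against 426 to 1070 CPM in the other 6 libraries, and none of the 12 is at 0 in any library. The part of these in the Kctd1 values was not tested.

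Kctd15 (ENSMUSG00000030499.9, chromosome 7, 34639014 to 34656732, minus strand) was level. Its CPM was 10.9, 10.5 and 10.9 in B6N, 8.66, 9.58 and 11.9 in Tfap2a+/- and 11.7, 11.3 and 10.1 in the libraries labelled Tfap2b+/-. The groups overlap in each comparison. The log2 folds were -0.10 with an interval from -0.40 to 0.19 in Tfap2a+/- and 0.040 with an interval from -0.26 to 0.33 in the libraries labelled Tfap2b+/-, both against B6N (edgeR adjusted p = 0.999 and 0.93). Between the heterozygotes it was 0.14 ± 0.13 (edgeR adjusted p = 0.69). Per kb of merged exons, Kctd1 exceeded Kctd15 by 2.03-fold in library 1 labelled Tfap2b+/- and by 6.50-fold in Tfap2a+/- library 2, with the other libraries between.

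Among the coactivators, Cited2 (ENSMUSG00000039910.10, chromosome 10, 17723218 to 17725674, plus strand) was the most abundant and the steadiest. Its CPM was 27.3, 31.6 and 32.5 in B6N, 33.6, 27.8 and 33.5 in Tfap2a+/- and 28.5, 32.3 and 34.8 in the libraries labelled Tfap2b+/-. The groups overlap throughout, and the 95% intervals of the log2 fold ran from -0.21 to 0.32 for Tfap2a+/- and from -0.20 to 0.33 for the libraries labelled Tfap2b+/-, both against B6N (edgeR adjusted p = 0.999 and 0.85). Between the heterozygotes its interval ran from -0.25 to 0.27 (edgeR adjusted p = 0.98). Cited2 made up 77.1% to 89.9% of the CPM of the 3 CITED genes.

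Cited1, first described as a melanocyte-specific gene, is X-linked (ENSMUSG00000051159.16, 102247381 to 102252181, minus strand). Its CPM was 1.36, 2.07 and 1.39 in B6N, 1.34, 0.713 and 0.967 in Tfap2a+/- and 2.54, 2.26 and 0.905 in the libraries labelled Tfap2b+/-. Every Tfap2a+/- library lies below every B6N library, narrowly so at the nearest pair, and 4.32% of all genes tested did so. The log2 fold was -0.67 ± 0.42 (SE; edgeR adjusted p = 0.999), with an exact permutation p = 0.1, the smallest possible. Between the heterozygotes it was 0.91 ± 0.42, with an interval from -0.03 to 1.85 (edgeR adjusted p = 0.45), and the groups overlap because of library 3 labelled Tfap2b+/-. Against B6N the libraries labelled Tfap2b+/- had a log2 fold of 0.24 ± 0.40 (edgeR adjusted p = 0.84).

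Cited4 (ENSMUSG00000070803.6, chromosome 4, 120666572 to 120667820, plus strand) was uneven in B6N. Its CPM was 6.76, 1.47 and 3.36 in B6N, 5.31, 6.28 and 6.04 in Tfap2a+/- and 2.44, 4.04 and 5.13 in the libraries labelled Tfap2b+/-. The B6N libraries hold both the highest and the lowest value of the 9, and the 2 heterozygotes do not overlap. In the lower direction 8.03% of all genes tested did not overlap between them. The log2 fold between the heterozygotes was -0.60 ± 0.47 (edgeR adjusted p = 0.63). Against B6N it was 0.61 ± 0.48 in Tfap2a+/- (edgeR adjusted p = 0.999) and 0.010 ± 0.48 in the libraries labelled Tfap2b+/- (edgeR adjusted p = 0.996), and the first ran from 0.23 without B6N library 2 to 1.29 without B6N library 1.

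**Figure D4:**
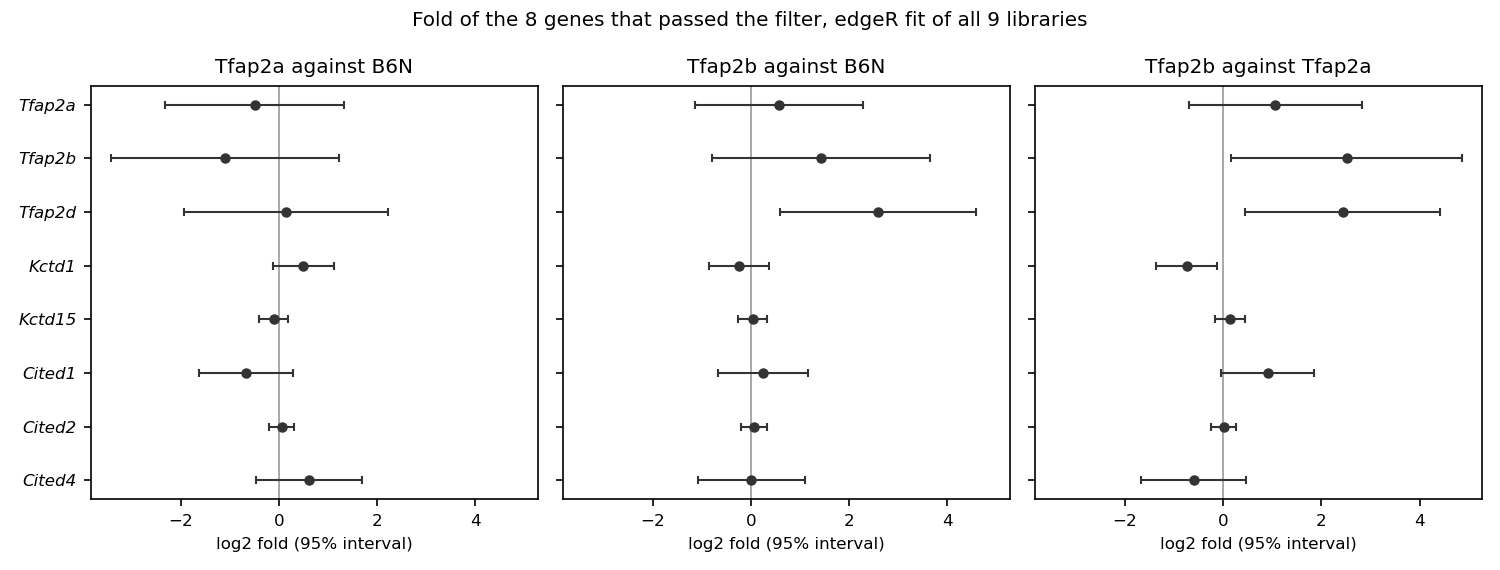
Log2 fold and 95% interval of the 8 tested genes in the 3 comparisons, from the edgeR fit of all 9 libraries. The intervals of Cited2 and Kctd15 are narrow and hold 0, and those of Tfap2b, Tfap2d and Kctd1 between the heterozygotes, and of Tfap2d in the libraries labelled Tfap2b+/- against B6N, do not hold 0 before adjustment over all genes.

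No member passed in any of the 3 comparisons after adjustment over 17355 genes, and neither did any other gene: edgeR called 0 genes, 0% of those tested, in each. At an unadjusted p under 0.05, edgeR had 0 members and 3.84% of all genes for Tfap2a+/- against B6N. It had 1 member, Tfap2d, and 10.6% of all genes for the libraries labelled Tfap2b+/- against B6N, and 3 members, Tfap2b, Tfap2d and Kctd1, of 8 and 11.5% of all genes between the heterozygotes. DESeq2 called 0 members, and 0.173%, 1.01% and 1.31% of all genes in the same order. The smallest DESeq2 adjusted p of a member was 0.14, for Tfap2d against B6N.

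Relations between members across the 9 libraries were tested for the 28 pairs of the 8 tested genes, on the log2 CPM scale (prior count 2). No pair passed the Benjamini-Hochberg adjustment over the 28, and 4 had an unadjusted exact permutation p under 0.05 for Pearson's r. Kctd1 and Cited4 were the most alike (r = 0.887, exact p = 0.0024, adjusted p = 0.059; rho = 0.90, exact p = 0.0020, adjusted p = 0.057; n = 9 libraries). Without the 2 libraries farthest from the median of Kctd1 r was 0.788, and after subtracting each genotype's mean it was 0.935. Kctd1 and Cited1 ran opposite (r = -0.845, exact p = 0.0042, adjusted p = 0.059; rho = -0.833, exact p = 0.0083, adjusted p = 0.12; n = 9), with r = -0.726 without the 2 farthest libraries and -0.744 within genotypes.

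The neighbours Tfap2b and Tfap2d had r = 0.583 (exact permutation p = 0.097, adjusted p = 0.39) and rho = 0.667 (exact permutation p = 0.059, adjusted p = 0.27) over the 9 libraries. Without the 2 libraries farthest from the median of Tfap2b r was 0.452, and within genotypes it was 0.274. The ratio of Tfap2b to Tfap2d CPM ran from 0.76 in B6N library 2 to 48.0 in B6N library 1, where Tfap2d had 1 count. Tfap2b held 32.8% to 89.7% of the summed CPM of the AP-2 genes. That sum was 42.4 CPM in library 1 labelled Tfap2b+/-, 16.5 CPM in B6N library 3 and 2.18 to 10.8 CPM in the other 7.

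The genes of most similar pattern were sought among the 17354 others by Pearson's r of log2 CPM over the 9 libraries, as a description. For Tfap2a these were Paqr4 (r = 0.993), Ccdc184 (0.989) and the pseudogene H2-Bl (0.978), and for Tfap2b they were Foxred2 (0.963), Zfp398 (0.962) and Zscan26 (0.957). For Tfap2d they were the unconfirmed transcript Gm2238 (0.940), Igsf3 (0.925) and Abcd3 (0.923). All 9 of these genes peak in library 1 labelled Tfap2b+/-. For Kctd1 they were Akt2 (0.993), Stat4 (0.985) and Ctnna2 (0.979), which encode a kinase, a signal transducer and a catenin, and for Kctd15 Map2k4 (0.944), Krt222 (0.943) and Rc3h1 (0.940).

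Cited1 was followed most closely by Pmp22, a peripheral myelin protein gene (r = 0.975), P3h4 (0.971) and Dip2a (0.970), each highest in library 1 labelled Tfap2b+/-. Cited2 was followed by Phf3 (0.945), Gm4951 (0.942) and BC028528 (0.909), and Cited4 by the noncoding Gm10635 (0.975), Slitrk2 (0.962) and the cyclin gene Ccne1 (0.960). These are the highest of many values over 9 libraries.

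**Figure D5:**
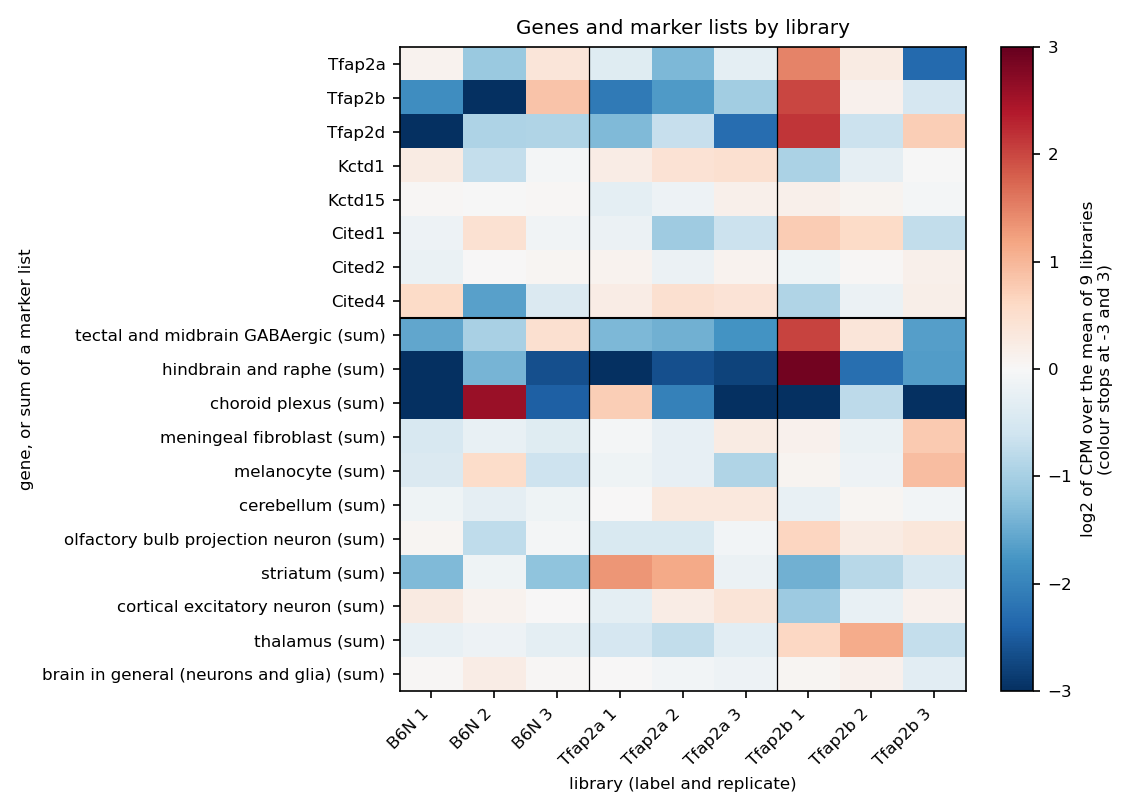
Log2 of the CPM in each library over the mean of the 9 libraries, for the 8 tested genes above the line and for the sums of 11 marker lists below it. The row of tectal markers has its 3 highest cells in the same libraries as Tfap2b, and the Cited2 and Kctd15 rows are nearly flat.

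Other genes of the pathway were read from lists of known partners and targets. Of 15 other proteins known to bind AP-2, such as p300 and PARP1, 15 were tested and 0 passed in either direction in any comparison. Their median log2 fold was -0.020 in Tfap2a+/- and 0.023 in the libraries labelled Tfap2b+/-, beside -0.0064 and -0.0012 over all genes tested. Parp1, a DNA repair enzyme that also acts as an AP-2 cofactor, stood at 64.9 ± 10.5 CPM in the libraries labelled Tfap2b+/-, 69.9 ± 2.45 CPM in Tfap2a+/- and 80.1 ± 9.27 CPM in B6N (SD, n = 3). Its log2 fold in the libraries labelled Tfap2b+/- against B6N was -0.31 ± 0.13 (edgeR adjusted p = 0.47). Sub1 and Dek, 2 other chromatin cofactors, had log2 folds of -0.30 ± 0.14 and -0.10 ± 0.08 there (edgeR adjusted p = 0.49 and 0.62).

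Of 20 other KCTD genes 19 were tested and 0 passed in either direction in the 3 comparisons. Their median log2 fold was -0.044 in Tfap2a+/- and -0.13 in the libraries labelled Tfap2b+/-. Kctd7, a gene of progressive myoclonic epilepsy in humans, was at 11.5 ± 0.712 CPM in Tfap2a+/- against 16.4 ± 1.86 CPM in B6N and 15.3 ± 1.50 CPM in the libraries labelled Tfap2b+/- (SD, n = 3). Its Tfap2a+/- libraries lie below both other groups, with a log2 fold of -0.51 ± 0.12 against B6N (edgeR adjusted p = 0.95). Of all genes tested, 4.32% lay lower without overlap in Tfap2a+/- against B6N. In the libraries labelled Tfap2b+/- against Tfap2a+/-, 9.2% lay higher without overlap, and the share of genes with both was not counted. Kctd18 was at 13.5 ± 1.41 CPM in the libraries labelled Tfap2b+/- against 10.5 ± 0.589 CPM in B6N (log2 fold 0.36 ± 0.11, edgeR adjusted p = 0.37), again with groups that do not overlap. In the higher direction 8.84% of all genes tested did so in that comparison. Kctd17 had its largest fold between the heterozygotes, -0.43 ± 0.17 (edgeR adjusted p = 0.41).

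Of 13 partners of CITED proteins 12 were tested and of 12 hypoxia-induced genes 12, and 0 of either list passed with edgeR in either direction. The median log2 folds of the partners were 0.051 in Tfap2a+/- and 0.0068 in the libraries labelled Tfap2b+/-. Smad3, a mediator of TGF-beta signals, stood at a log2 fold of -0.61 ± 0.25 in the libraries labelled Tfap2b+/- against B6N (edgeR adjusted p = 0.46). Arnt, the partner of HIF-1 alpha, was at 0.23 ± 0.10 and Hif1a itself at 0.17 ± 0.11 (edgeR adjusted p = 0.46 and 0.58).

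The hypoxia-induced genes had medians of 0.0011 in Tfap2a+/- and -0.20 in the libraries labelled Tfap2b+/-, where 9 of 12 had a lower mean and 4 of 12 had groups that do not overlap, against 7.63% of all genes in that direction. Egln1, the oxygen-sensing prolyl hydroxylase, was at 83.0 ± 4.05 CPM in the libraries labelled Tfap2b+/- against 96.9 ± 4.77 CPM in B6N (SD, n = 3), a log2 fold of -0.22 ± 0.08 (edgeR adjusted p = 0.43). Ldha, lactate dehydrogenase A, was at 154 ± 40.4 against 228 ± 29.2 CPM, a log2 fold of -0.57 ± 0.18 (edgeR adjusted p = 0.39), and P4ha1 at 40.7 ± 1.46 against 51.3 ± 11.5 CPM, a log2 fold of -0.33 ± 0.15 (edgeR adjusted p = 0.47). Between the heterozygotes DESeq2 called 1 gene of this list, in the lower direction, where edgeR called 0.

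Of 21 genes reported as AP-2 targets, mostly in other tissues, 17 were tested and 0 passed in either direction. Their median log2 fold was 0.033 in Tfap2a+/- and 0.042 in the libraries labelled Tfap2b+/-. Cdh1, the gene of E-cadherin, stood at 2.63, 2.33 and 2.93 CPM in B6N and at 4.07, 3.70 and 7.42 CPM in Tfap2a+/-. The libraries labelled Tfap2b+/- had 4.16, 4.04 and 7.13 CPM of it. All 6 heterozygous libraries lie above the 3 of B6N. The log2 folds against B6N were 0.94 ± 0.32 and 0.95 ± 0.32 (edgeR adjusted p = 0.999 and 0.42), and the 2 comparisons share the B6N libraries. In the higher direction 4.85% of all genes did not overlap in Tfap2a+/- against B6N, and 8.84% in the libraries labelled Tfap2b+/- against B6N. The share that did both was not counted.

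F2r, the thrombin receptor gene, and Mcam, an adhesion molecule of melanoma cells and vessels, had their largest log2 folds between the heterozygotes, 1.26 ± 0.53 and 0.56 ± 0.29 (edgeR adjusted p = 0.42 and 0.48). Kit, a receptor of the melanocyte lineage, ranged from 38.7 to 70.2 CPM, with both extremes in B6N. Dbh, which makes noradrenaline and depends on AP-2 beta in sympathetic neurons, was at most 0.507 CPM and did not pass the filter.

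The neighbours of the targeted genes on their chromosomes were read as well. The nearest protein-coding genes to Tfap2a are Ofcc1, with at most 2 counts per library, and Gcnt2, which makes branched poly-lactosamine and begins 121378 bases beyond Tfap2a. Gcnt2 was at 36.1, 42.9 and 25.0 CPM in B6N, 43.7, 50.3 and 45.3 CPM in Tfap2a+/- and 10.1, 19.3 and 31.4 CPM in the libraries labelled Tfap2b+/-. Its log2 fold was 0.42 ± 0.35 in Tfap2a+/- against B6N (edgeR adjusted p = 0.999) and -1.20 ± 0.35 between the heterozygotes (edgeR adjusted p = 0.37). Beside Tfap2b lie Tfap2d on 1 side and Pkhd1, the gene of fibrocystin, on the other, at most 4 counts per library and 819203 bases away. The 3 antisense genes that overlap Tfap2a had at most 3 counts per library each, and the antisense Gm15825, which overlaps Tfap2d, had at most 10.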

How the data were processed

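Brain RNA of 9 libraries was sequenced as 75-base read pairs from a stranded kit, per the labels' protocols. The deposited values are whole-number counts of fragments per gene in 3 columns by strand. The tools cutadapt 2.4, STAR 2.6.1d and edgeR are listed with genome GRCm38.p6, per the submitters' processing notes. No source used here names the annotation release. The reverse-strand column, the sense strand of a dUTP kit, was used. Rows that name no gene held 15.5% to 19.7% of fragments and were left out.

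Counts were scaled by TMM, filtered with filterByExpr by genotype to 17355 genes, and tested with edgeR 4.0.16 (quasi-likelihood, R 4.3.3) in 1 fit of all 9 libraries, with Benjamini-Hochberg adjustment over those genes at 0.05. The fit was tested on simulated data. CPM values are TMM-scaled. Identifiers were matched to GENCODE M21 names, 54409 of 54446. Libraries of a group differed by more than counting noise (chi-square per degree of freedom of at least 19.9), so none was treated as a library deposited again, which does not show that they are separate animals. Alternatives were DESeq2 1.42.0, its size factors, no filter or a stricter one, unstranded counts, a replicate block, only the genotypes compared, each library left out, and the longest transcript as gene length. Leaving out 3 libraries with high choroid plexus or hindbrain markers, called marker-high, was chosen after seeing the data.

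Named were all members, up to 3 genes of smallest p from each pathway list, the 3 genes of highest Pearson's r to each tested member, and overlapping or neighbouring genes. Single genes named from the marker lists, and Kit, Dbh and Pou4f3, were chosen after their values were seen. The members and lists were chosen with earlier results of these data known.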

Additional observations from a re-analysis of the deposited data

Results flagged for a closer look

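In the forward-strand column, which the comparisons do not use, 2 members had more than 3 counts in a heterozygous group with each of its libraries above each B6N library. How many of all genes do so on that strand was not counted. Tfap2d had a mean of 0.107 CPM on that strand in the libraries labelled Tfap2b+/- (0.0337 to 0.212, 9 counts in all), where the B6N libraries had 0 counts. The 9 counts were 6, 1 and 2 by library, and 2.61% of the Tfap2d fragments there. Over all genes the forward strand held 4.16% to 4.94% per library. Kctd1 had a mean of 1.54 CPM on that strand in Tfap2a+/- (1.40 to 1.61, 112 counts in all) against 0.902 CPM in B6N (0.656 to 1.22, 65 counts). Those counts were 1.36% of the Kctd1 fragments in Tfap2a+/- and 1.12% in B6N. Kctd15 had 34 counts on that strand in the libraries labelled Tfap2b+/- and 19 in B6N, with groups that overlap. Tfap2e, with no sense count, had 5 forward-strand counts in B6N, 4 in Tfap2a+/- and 11 in the libraries labelled Tfap2b+/-. The cause was not tested.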

How the results depend on the processing

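Of 189 values of the tested members under the alternatives other than leaving out 1 library, 184 kept their direction, 5 reversed and 0 passed the threshold; of 216 values without 1 library, 15 reversed and 0 passed. In the order Tfap2a+/- against B6N, libraries labelled Tfap2b+/- against B6N and the same against Tfap2a+/-, edgeR called 0 genes in each, and DESeq2 called 30, 175 and 228. Without a filter edgeR called 2, 0 and 7 genes. Without the 3 marker-high libraries it called 0, 2 and 1. Leaving out each library gave 0 to 3, 0 to 4 and 0 to 31 genes: 3 and 3 for the first and last without Tfap2a+/- library 2, 2 and 2 for the later pair without library 1 labelled Tfap2b+/-, and 4 and 31 without library 3 of that label.

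For the libraries labelled Tfap2b+/- against B6N, leaving out the 3 marker-high libraries turned the log2 folds of Tfap2a to -0.74, Tfap2b to -0.21, Kctd15 to -0.015 and Cited4 to -0.13, and unstranded counts turned Cited4 to -0.028. Leaving out each library, the log2 folds that changed sign for Tfap2a+/- against B6N ran from -1.62 to 0.93 for Tfap2b, -0.37 to 0.51 for Tfap2d, -0.23 to 0.0020 for Kctd15 and -0.014 to 0.14 for Cited2. For the libraries labelled Tfap2b+/- against B6N they ran from -0.41 to 1.07 for Tfap2a, -0.015 to 0.57 for Cited1, -0.0079 to 0.14 for Cited2 and -0.37 to 0.68 for Cited4. Between the heterozygotes they ran from -0.076 to 0.083 for Cited2. The cause was not tested.

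The deviations of same-numbered libraries from their group means correlated at -0.35 to 0.34, and those of different-numbered libraries at -0.39 to 0.37. Deviations within a group of 3 sum to 0, so these ranges cannot decide whether replicate numbers pair the libraries. With the replicate number as a block edgeR called 0, 0 and 0 genes, and the Tfap2b log2 fold against B6N in the libraries labelled Tfap2b+/- was 1.99 and that of Tfap2a in Tfap2a+/- was -0.53. Depth limits Tfap2a, Tfap2c and Tfap2e most, with at most 45 counts in a library.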
